A study of Mus musculus with 4 samples.

Results

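Interferon-stimulated genes were examined in cultured mouse acute myeloid leukaemia cells that were derived from haematopoietic stem cells of the bone marrow and carried NRAS and AE9a, where AE9a is a spliced variant of the leukaemia fusion protein AML1-ETO. The set holds 49 named genes, of which 30 are known chiefly as type I interferon response genes and 19 as interferon gamma response genes, and all 49 were found by symbol among the 24497 gene rows of the table. The Tet2 KO cells came from Tet2-/- mice lacking exon 3 of that gene, and the WT cells came from wild-type mice. Both groups carried the same oncogenes and were grown in RPMI medium with murine stem cell factor, IL-3, IL-6, G418 and puromycin, and no interferon or other treatment is given in the labels. There were 2 Tet2 KO and 2 WT libraries. The labels do not say how many animals or cultures stand behind them, so each p-value reflects only how far the libraries of a genotype differ, and that difference may be technical.

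Interferons are secreted proteins that cells release on sensing viral or displaced nucleic acid. Type I interferons act through the receptor chains Ifnar1 and Ifnar2 and the kinases Jak1 and Tyk2, and lead to a complex holding Stat2 and Irf9 that binds interferon-stimulated response elements (ISRE) in promoters. Interferon gamma acts through Ifngr1, Ifngr2, Jak1 and Jak2, and leads to the binding of gamma-activated sites (GAS). Many myeloid cells hold a low standing level of the induced genes without added interferon.

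Values were deposited as TPM, a share of all transcripts in a library, which are scaled for transcript length and keep no sequencing depth, so the depth behind a value is unknown. Of all gene rows, 11452 with 1 TPM or more in any 2 libraries were tested with limma on log2(TPM + 1), a scale that understates the change of low genes. Genes with a Benjamini-Hochberg adjusted p under 0.05 over all tested genes are called higher or lower in Tet2 KO. The median log2 fold change of all tested genes was 0.23, so counts are also given after median-ratio scaling, which set that median to 0.0023. Scaling to the ERCC spike-in RNAs, which took 5.48 and 5.33% of the Tet2 KO libraries and 4.38 and 4.43% of the WT libraries, set it to -0.0028. Tet2 itself stood at 16.98 and 16.95 TPM in Tet2 KO and at 16.62 and 16.98 TPM in WT, and was not called (limma adjusted p = 0.868). It was lower after median-ratio scaling (log2 fold change -0.22, limma adjusted p = 0.00935) and after ERCC scaling (-0.22, limma adjusted p = 0.0208). A value for the whole gene does not check the deletion of 1 exon.

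On the deposited scale, most interferon-stimulated genes that could be tested stood at modestly higher levels in Tet2 KO cells, in both response groups. Of the 38 tested members, 26 were higher (68.4%) and 3 were lower (7.89%), whereas 54.4% of all tested genes were higher and 19.5% lower. After median-ratio scaling, 18 members were higher (47.4%) and 6 lower (15.8%), against 33.3% and 34.4% of all tested genes. Rtp4, Rsad2, Oasl2, Tgtp2, Tgtp1 and Gbp8 were at least 2-fold higher on the log2(TPM + 1) scale, 2 of which, Tgtp1 and Gbp8, reached the filter only through the Tet2 KO libraries. These 6 members are set beside 6.1% of all tested genes, and none of the 38 was at least 2-fold lower, as 2.8% of all tested genes were. In bulk RNA, fewer cells of a type and less RNA per cell cannot be told apart. In 31 of the 38 members both Tet2 KO libraries lay above both WT libraries and in 4 both lay below, as they did in 62.4% and 24.4% of all tested genes.

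Of 25 tested type I members, 18 were higher (72.0%) and 2 lower, with a median log2 fold change of 0.42. Of 13 tested gamma members, 8 were higher (61.5%) and 1 lower, with a median of 0.53. Of these 8, 2 (Tgtp1 and Gbp8) passed the filter only through the Tet2 KO libraries, so their direction was fixed. Even with them, the gamma share lies near the 54.4% of all tested genes that were higher. After median-ratio scaling, 11 type I members were higher and 4 lower (median 0.25), and 7 gamma members were higher and 2 lower (median 0.31). The difference between the 2 groups was not tested. Summed over all members, the type I genes held 417.5 and 409.04 TPM in the Tet2 KO libraries, against 315.2 and 305.2 TPM in the WT libraries. The gamma genes held 173.4 and 169.9 TPM in Tet2 KO cells, compared with 138.9 and 138.04 TPM in WT cells. In the Tet2 KO libraries the tetherin gene Bst2 alone made up 152.76 and 145.02 TPM of the type I sum.

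**Figure D1:**
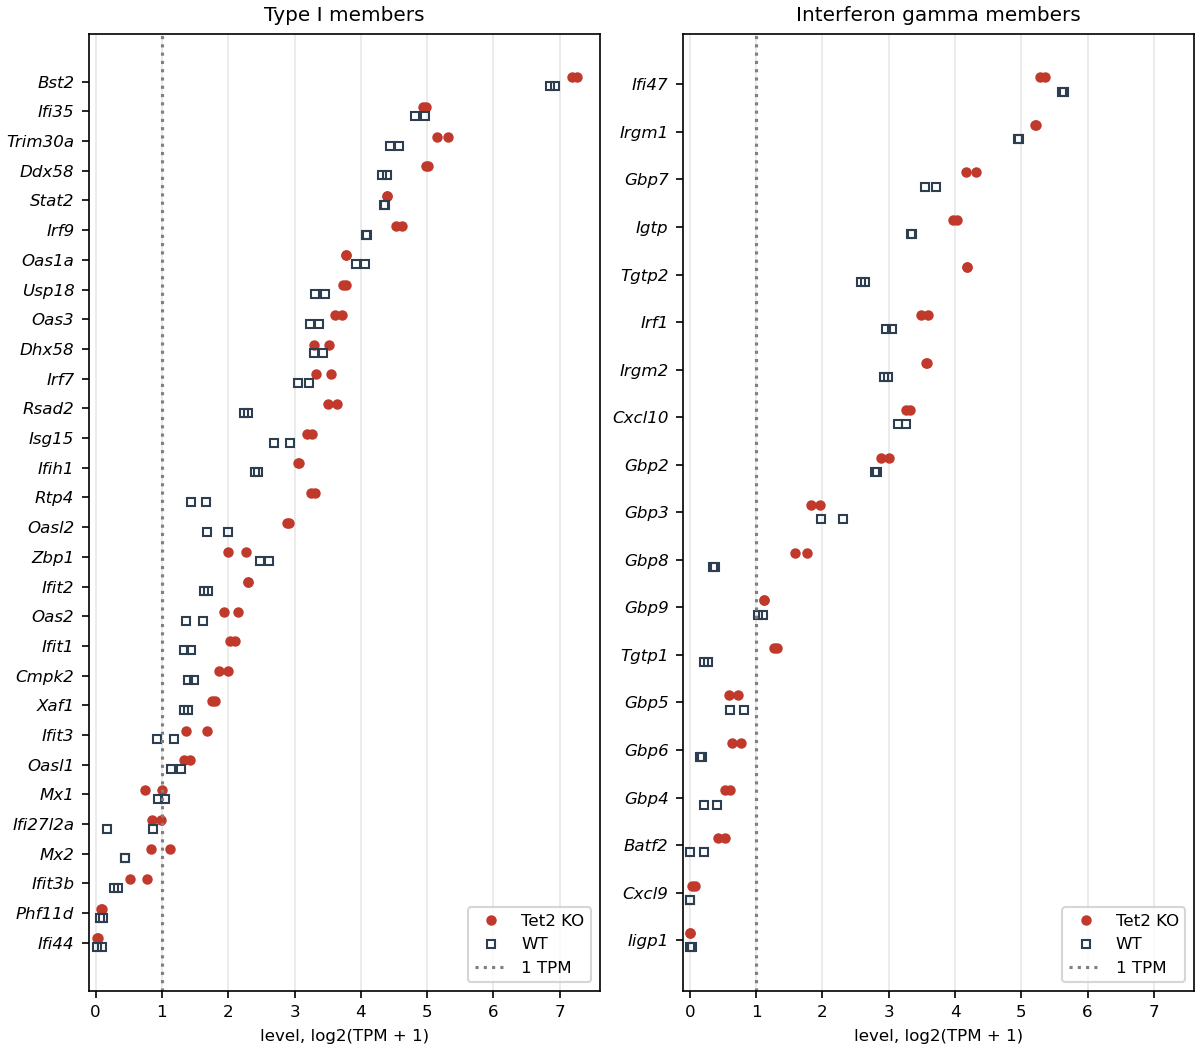
Level of each of the 49 members as log2(TPM + 1) in the 2 Tet2 KO libraries (filled circles) and the 2 WT libraries (open squares), ordered by mean level, with the dotted line at 1 TPM. Bst2 is the most abundant type I member and Ifi47 the most abundant gamma member, and 11 members too low to be tested lie at the foot of the panels.

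**Figure D2:**
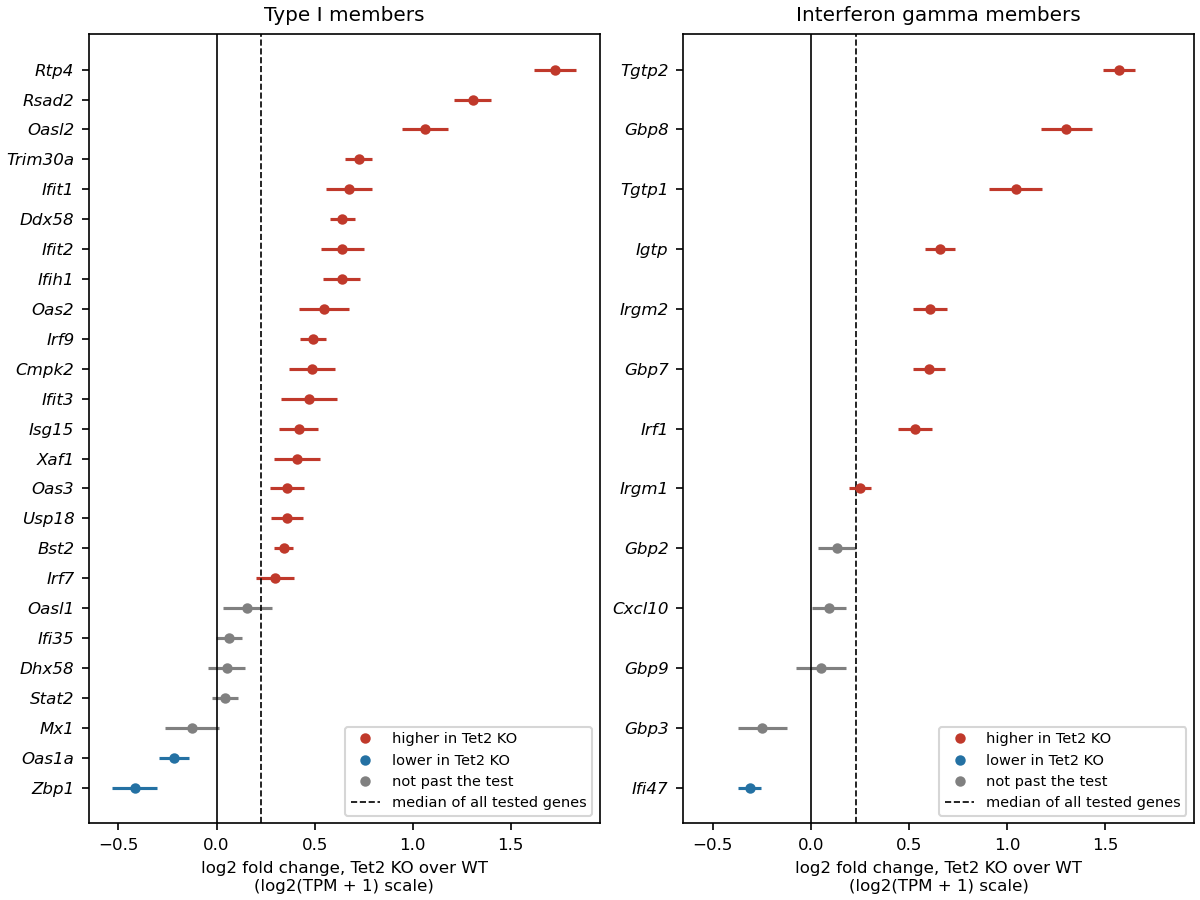
Log2 fold change of the 38 tested members, Tet2 KO over WT, with bars of 1 standard error (n = 2 libraries a group) and the dashed line at the median of all tested genes, 0.23. Rtp4 and Tgtp2 lead the 2 panels, and Zbp1, Oas1a and Ifi47 are the 3 members that were lower.

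No interferon gene was read at an appreciable level in these cells. Of 21 ligand genes in the table, 17 were listed at 0 in all 4 libraries, among them Ifnb1 and Ifng, and none exceeded 0.16 TPM. The highest of them was Ifnab, an interferon alpha family gene, listed at 0.16 and 0.12 TPM in Tet2 KO and at 0 in both WT libraries. The receptor chains differed in direction. Ifnar2, the signalling chain of the type I receptor, stood at 56.71 and 56.86 TPM in Tet2 KO cells, compared with 42.78 and 41.64 TPM in WT cells, so it was higher (log2 fold change 0.42; limma adjusted p = 3.28e-06). Both chains of the gamma receptor were lower. Ifngr1 stood at 58.24 and 58.85 TPM in Tet2 KO cells, compared with 67.15 and 68.29 TPM in WT cells (log2 fold change -0.21, limma adjusted p = 0.00192). Ifngr2 stood at 74.32 and 77.58 TPM in Tet2 KO libraries, against 98.95 and 98.56 TPM in WT (log2 fold change -0.37, limma adjusted p = 4.0e-06). Ifnar1 was at 30.18 and 32.01 TPM in Tet2 KO and at 30.06 and 29.56 TPM in WT (limma adjusted p = 0.393), and was lower after median-ratio scaling (-0.18). Of the kinases, Jak2 was higher, at 102.15 and 98.67 TPM in Tet2 KO libraries, against 61.63 and 63.05 TPM in WT (log2 fold change 0.68, limma adjusted p = 4.34e-09), and Jak1 was 1.35-fold higher in mean TPM. Jak2 also serves the receptors for IL-3, one of the cytokines in the medium.

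The transcription factors of the response moved unequally. Irf9, the DNA-binding part of the type I complex, stood at 22.09 and 23.57 TPM in Tet2 KO cells, compared with 16.02 and 15.84 TPM in WT cells. Both Tet2 KO libraries lay above both WT libraries, and the gene was 1.43-fold higher (log2 fold change 0.49, SE 0.0678, limma adjusted p = 6.36e-06). Its partner Stat2 was at 20.01 and 20.12 TPM in Tet2 KO and at 19.53 and 19.39 TPM in WT. It did not pass the test (log2 fold change 0.04, limma adjusted p = 0.571), and after median-ratio scaling it was lower (-0.19, limma adjusted p = 0.0138). Irf1, a factor made directly downstream of GAS sites, stood at 11.04 and 10.23 TPM in Tet2 KO cells, compared with 7.30 and 6.79 TPM in WT cells. The groups did not overlap, and Irf1 was 1.51-fold higher (log2 fold change 0.53, SE 0.0871, limma adjusted p = 4.04e-05). Irf7, which amplifies interferon alpha production, stood at 9.02 and 10.68 TPM in Tet2 KO cells, compared with 8.34 and 7.30 TPM in WT cells. Its rise was small (log2 fold change 0.30, limma adjusted p = 0.0119) and did not hold after median-ratio scaling (limma adjusted p = 0.515), without Tet2 KO replicate 2 (limma adjusted p = 0.14) and without WT replicate 2 (limma adjusted p = 0.136). Over all alternatives its adjusted p ranged from 0.00716 to 0.762. Batf2, a basic leucine zipper factor induced by interferon, was too low to be tested, at 0.45 and 0.35 TPM in Tet2 KO and at 0 and 0.16 TPM in WT.

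The cytosolic RNA sensors of the RIG-I family split. Ddx58, which encodes RIG-I, stood at 30.58 and 31.26 TPM in Tet2 KO cells, compared with 18.92 and 20.02 TPM in WT cells, a 1.59-fold difference (log2 fold change 0.64, SE 0.0633, limma adjusted p = 1.37e-07). Ifih1, which encodes MDA5, a sensor of long double-stranded RNA, stood at 7.42 and 7.32 TPM in Tet2 KO cells, compared with 4.48 and 4.28 TPM in WT cells, 1.68-fold (log2 fold change 0.64, limma adjusted p = 1.39e-05). In both genes the libraries of a genotype lay close together and apart from the other genotype. Dhx58, which encodes the regulator LGP2, overlapped between groups, at 8.84 and 10.52 TPM in Tet2 KO and at 9.73 and 8.83 TPM in WT (limma adjusted p = 0.628). Zbp1, a sensor of Z-form nucleic acid that can start necroptosis, went the other way, at 3.80 and 2.99 TPM in Tet2 KO and at 5.15 and 4.55 TPM in WT. It was lower (log2 fold change -0.42, SE 0.115, limma adjusted p = 0.00393), but not when Tet2 KO replicate 2 (limma adjusted p = 0.0585) or WT replicate 1 (limma adjusted p = 0.0544) was left out, with a range over alternatives of 8.9e-04 to 0.0585.

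The 2-5A synthetases make the short oligoadenylates that switch on RNase L. Oas2 stood at 2.82 and 3.41 TPM in Tet2 KO cells, compared with 1.57 and 2.06 TPM in WT cells (log2 fold change 0.55, limma adjusted p = 9.9e-04), a call lost after quantile normalization (limma adjusted p = 0.0601, range over alternatives 2.33e-04 to 0.0601). Oas3 stood at 12.11 and 11.21 TPM in Tet2 KO cells, compared with 9.35 and 8.41 TPM in WT cells (log2 fold change 0.36, limma adjusted p = 0.0013), which no longer held after median-ratio scaling (limma adjusted p = 0.189, range over alternatives 6.37e-04 to 0.407). Both were higher, while their neighbour Oas1a was lower. Oas1a stood at 12.70 and 12.67 TPM in Tet2 KO cells, compared with 15.73 and 14.14 TPM in WT cells (log2 fold change -0.22, SE 0.0774, limma adjusted p = 0.0184). Without Tet2 KO replicate 2 the adjusted p was 0.0535 and without WT replicate 1 it was 0.242, the highest of its alternatives among the settings fixed for all members, of which the lowest was 3.25e-04. In the annotated transcripts, 57.6% of the 50-base stretches of Oas1a are also found in Oas1g, so its value is uncertain. Summed with Oas1g, an alternative chosen after the data were seen, it was still lower (log2 fold change -0.20, limma adjusted p = 0.0236), and summed with Oas1g and Oas1b it held 17.52 and 17.35 TPM in Tet2 KO and 17.76 and 17.16 TPM in WT (limma adjusted p = 0.982). The OAS-like genes also split. Oasl2 stood at 6.41 and 6.52 TPM in Tet2 KO cells, compared with 2.19 and 3.01 TPM in WT cells, so it was 2.49-fold higher in mean TPM (log2 fold change 1.06, SE 0.117, limma adjusted p = 5.66e-07). Oasl1, which in mice restrains Irf7 translation, was at 1.51 and 1.68 TPM in Tet2 KO and at 1.21 and 1.45 TPM in WT, and was not called (limma adjusted p = 0.27).

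IFIT proteins bind foreign RNA ends and block its translation, and their genes sit side by side on chromosome 19 within 99.3 kb (GENCODE M21, mm10). All 3 that could be tested were higher, or 2 after median-ratio scaling, beside 54.4% and 33.3% of all tested genes. Ifit1 stood at 3.07 and 3.28 TPM in Tet2 KO cells, compared with 1.70 and 1.53 TPM in WT cells, 1.97-fold (log2 fold change 0.68, SE 0.116, limma adjusted p = 6.34e-05). Ifit2 stood at 3.92 and 3.93 TPM in Tet2 KO cells, compared with 2.09 and 2.23 TPM in WT cells, 1.82-fold (log2 fold change 0.64, limma adjusted p = 6.17e-05). Both pairs were well apart, though all values were under 4 TPM. Ifit3 stood at 1.58 and 2.20 TPM in Tet2 KO cells, compared with 1.26 and 0.90 TPM in WT cells (log2 fold change 0.47, limma adjusted p = 0.0069). This call was lost after median-ratio scaling (limma adjusted p = 0.0747), without Tet2 KO replicate 2 (limma adjusted p = 0.106) and without WT replicate 2 (limma adjusted p = 0.088), and the adjusted p ranged over alternatives from 0.00566 to 0.193. Ifit3 shares 51.2% of its 50-base stretches with Ifit3b, so its own value is uncertain. Ifit3b was at 0.71 and 0.44 TPM in Tet2 KO and at 0.27 and 0.21 TPM in WT, and the pair summed was higher (log2 fold change 0.58, limma adjusted p = 7.15e-04).

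Among the antiviral effectors, Rsad2 changed most. Rsad2 encodes viperin, a radical SAM enzyme that makes a chain-terminating nucleotide. It stood at 11.53 and 10.33 TPM in Tet2 KO cells, compared with 3.71 and 3.93 TPM in WT cells, a 2.86-fold difference (log2 fold change 1.31, SE 0.0947, limma adjusted p = 3.33e-09). Cmpk2, its neighbour on chromosome 12 and a mitochondrial nucleotide kinase gene, stood at 2.64 and 2.98 TPM in Tet2 KO cells, compared with 1.63 and 1.81 TPM in WT cells, so it was 1.63-fold higher (log2 fold change 0.49, limma adjusted p = 0.00148), though not after quantile normalization (limma adjusted p = 0.0954, the highest of its alternatives, of which the lowest was 9.9e-04). Bst2, which encodes tetherin, was the most abundant member, at 152.76 and 145.02 TPM in Tet2 KO and at 120.21 and 114.33 TPM in WT. It was higher on the deposited scale (log2 fold change 0.34, limma adjusted p = 7.87e-06), but was not called after median-ratio scaling (0.10, limma adjusted p = 0.118, range over alternatives 6.94e-07 to 0.274). The dynamin-like GTPase gene Mx1 overlapped, at 0.67 and 1.01 TPM in Tet2 KO and at 0.93 and 1.07 TPM in WT (limma adjusted p = 0.424). Mx2, annotated as a polymorphic pseudogene, was too low to be tested, at 1.17 and 0.79 TPM in Tet2 KO and at 0.36 TPM in both WT libraries.

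Isg15, a ubiquitin-like modifier, stood at 8.64 and 8.15 TPM in Tet2 KO cells, compared with 5.44 and 6.66 TPM in WT cells (log2 fold change 0.42, limma adjusted p = 0.00128). Usp18, the protease that removes it and that also holds back Ifnar2 signalling, stood at 12.22 and 12.68 TPM in Tet2 KO cells, compared with 10.05 and 8.96 TPM in WT cells (log2 fold change 0.36, limma adjusted p = 0.00105). Both were higher, and both calls were lost after median-ratio scaling (limma adjusted p = 0.0976 and 0.167). Their adjusted p ranged over alternatives from 4.76e-04 to 0.21 and from 5.08e-04 to 0.343.

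Of the other type I members, Rtp4 showed the largest change of the set on the log2(TPM + 1) scale. Rtp4, a receptor chaperone gene that interferon induces, stood at 8.92 and 8.48 TPM in Tet2 KO cells, compared with 1.72 and 2.16 TPM in WT cells, a 4.48-fold difference in mean TPM (log2 fold change 1.73, SE 0.108, limma adjusted p = 5.47e-10). Of its 50-base stretches, 13.6% also occur in Gm45338, a gene model that overlaps it on the same strand. Trim30a, a tripartite motif gene, stood at 38.59 and 34.64 TPM in Tet2 KO cells, compared with 20.78 and 22.73 TPM in WT cells, so it was 1.68-fold higher (log2 fold change 0.72, limma adjusted p = 1.03e-07). Xaf1, which encodes an antagonist of the apoptosis inhibitor XIAP, stood at 2.38 and 2.47 TPM in Tet2 KO cells, compared with 1.53 and 1.62 TPM in WT cells. Its rise (log2 fold change 0.41, limma adjusted p = 0.00476) was lost after median-ratio scaling (limma adjusted p = 0.0606, range over alternatives 0.00107 to 0.204). Ifi35 overlapped, at 30.51 and 29.62 TPM in Tet2 KO and at 30.39 and 27.19 TPM in WT (limma adjusted p = 0.399), and was lower after median-ratio scaling (-0.18, limma adjusted p = 0.045). Ifi27l2a, Ifi44 and Phf11d were under 1 TPM in every library and were not tested.

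The guanylate binding proteins are large GTPases that coat intracellular pathogens, and their genes lie in a cluster on chromosome 3 and another on chromosome 5. Of 8 members, 5 could be tested, and 2 of these were higher. After median-ratio scaling 2 were higher and 1 lower. The shares of all tested genes were 54.4% higher and 19.5% lower, or 33.3% and 34.4% after that scaling. Gbp7 stood at 18.82 and 16.94 TPM in Tet2 KO cells, compared with 10.75 and 12.09 TPM in WT cells, 1.57-fold (log2 fold change 0.60, SE 0.0813, limma adjusted p = 4.97e-06). Other genes hold 12.8% of the 50-base stretches of Gbp7, and the overlapping gene model Gm43802 holds 10.6%. Gbp8 stood at 1.99 and 2.39 TPM in Tet2 KO cells, compared with 0.30 and 0.28 TPM in WT cells (log2 fold change 1.30, SE 0.132, limma adjusted p = 1.84e-07). Gbp8 passed the filter on low values only through the Tet2 KO libraries, so it had to differ, and 21.2% of its 50-base stretches occur in other genes. Gbp2 was at 7.01 and 6.39 TPM in Tet2 KO and at 6.08 and 5.96 TPM in WT (limma adjusted p = 0.211), and Gbp9 was at 1.18 and 1.17 TPM in Tet2 KO and at 1.16 and 1.04 TPM in WT (limma adjusted p = 0.727). Gbp3 was at 2.54 and 2.92 TPM in Tet2 KO and at 3.97 and 2.93 TPM in WT. It did not pass the test (log2 fold change -0.25, limma adjusted p = 0.09), but was lower after median-ratio scaling (-0.43, limma adjusted p = 0.0186) and without WT replicate 2 (-0.42, limma adjusted p = 0.0205), with a range over alternatives of 0.00719 to 0.681. Gbp4, Gbp5 and Gbp6 stayed under 1 TPM. Of these, Gbp6 was at 0.71 and 0.56 TPM in Tet2 KO and at 0.11 and 0.14 TPM in WT, and 90.2% of its 50-base stretches occur in the overlapping gene model Gm43302, so this value is uncertain. Gbp2b, a family gene outside the set, stood at 2.30 and 2.63 TPM in Tet2 KO and had a value of 0 in each WT library. It passed the filter only through the Tet2 KO libraries, so it had to differ.

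The immunity-related GTPases attack the membranes of vacuoles that hold parasites or bacteria. Of 7 members, 6 could be tested, and 5 were higher and 1 lower, or 4 and 1 after median-ratio scaling. Beside these stand 54.4% higher and 19.5% lower of all tested genes, or 33.3% and 34.4% after that scaling. Tgtp1, whose direction was fixed by the filter, is among the higher ones on both scales. Tgtp2 stood at 17.21 and 17.14 TPM in Tet2 KO cells, compared with 5.23 and 5.01 TPM in WT cells, a 3.35-fold difference (log2 fold change 1.57, SE 0.0819, limma adjusted p = 5.67e-11). Tgtp1 stood at 1.49 and 1.40 TPM in Tet2 KO cells, compared with 0.21 and 0.16 TPM in WT cells (log2 fold change 1.05, limma adjusted p = 2.93e-06), and passed the filter only through the Tet2 KO libraries, so it too had to differ. The annotated transcripts of this pair share 89.8% of the 50-base stretches of Tgtp2, so the split between them is uncertain. Summed, they held 18.70 and 18.54 TPM in Tet2 KO cells, compared with 5.44 and 5.17 TPM in WT cells, 3.51-fold (log2 fold change 1.64, SE 0.0809, limma adjusted p = 2.58e-11). Igtp stood at 14.62 and 15.32 TPM in Tet2 KO cells, compared with 9.16 and 9.07 TPM in WT cells, 1.64-fold (log2 fold change 0.66, SE 0.0776, limma adjusted p = 1.12e-06). In the annotated transcripts, 12.3% of the 50-base stretches of Igtp also occur in Irgm2. Irgm2, like Igtp a regulatory member, which overlaps Igtp on the same strand, stood at 10.82 and 10.89 TPM in Tet2 KO cells, compared with 6.59 and 6.97 TPM in WT cells, 1.6-fold (log2 fold change 0.61, SE 0.0848, limma adjusted p = 7.39e-06). In Tgtp2, Igtp and Irgm2 the replicates lay close together and the genotypes did not overlap. Irgm1, also a regulatory member, stood at 35.73 and 36.36 TPM in Tet2 KO cells, compared with 29.90 and 30.35 TPM in WT cells (log2 fold change 0.25, limma adjusted p = 9.96e-04), a difference close to the general shift, and it was not called after median-ratio scaling (0.01, limma adjusted p = 0.835, range over alternatives 5.63e-04 to 0.919). Ifi47 was the only gamma member that was lower on the deposited scale, at 40.11 and 37.79 TPM in Tet2 KO cells, compared with 48.91 and 48.19 TPM in WT cells (log2 fold change -0.31, SE 0.0571, limma adjusted p = 1.27e-04), and more so after median-ratio scaling (-0.55). Iigp1 had a value of 0 in each Tet2 KO library and in WT replicate 1, and of 0.02 TPM in WT replicate 2.

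Genes next to each other did not always move together. On chromosome 11, Irgm1, Tgtp1, Tgtp2 and Ifi47 lie within 235 kb (48861968 to 49096974, mm10). The first 3 were higher on the deposited scale and Ifi47 was lower. Of the 3, Irgm1 was not called after median-ratio scaling (limma adjusted p = 0.835), and the filter fixed the direction of Tgtp1. On chromosome 5, Oas2, Oas3 and Oas1a lie within 177 kb (120730333 to 120907521), with Oas2 and Oas3 higher and Oas1a lower on the deposited scale. Oas3 was not called after median-ratio scaling (limma adjusted p = 0.189). The lower value of Oas1a is uncertain, as its sum with Oas1g and Oas1b was not called (limma adjusted p = 0.982). In the chromosome 3 cluster of guanylate binding protein genes (142493978 to 142638008), Gbp7 was higher and its neighbours Gbp3 and Gbp2 were not called.

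**Figure D3:**
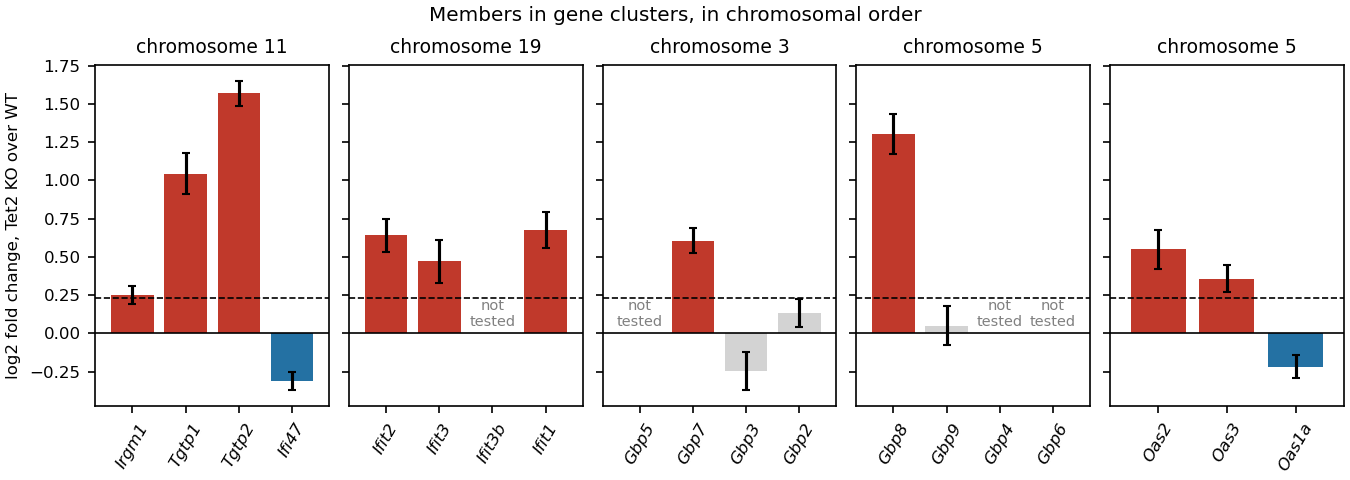
Log2 fold change, Tet2 KO over WT, of members in the 5 clusters of at least 3 members (neighbours within 500000 bases), in chromosomal order, with bars of 1 standard error (n = 2 libraries a group). Red bars were higher, blue bars lower and grey bars not past the test, and the dashed line is the median of all tested genes, 0.23. On this scale, the deposited one, a lower gene, Ifi47 or Oas1a, lies beside higher ones in 2 clusters. The call of Oas1a was lost when it was summed with Oas1g and Oas1b.

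Promoters were read from RefSeq (GRCm38.p6), from 250 bases before to 50 bases after each annotated start, and 35 of the 49 members had one. The ISRE core, which is GAAA, any 2 bases and GAAA, on either strand, occurred in 57.5% of the 40 member promoters and in 3.44% of all 32851 promoters. The GAS core TTCNNNGAA, which reads the same on both strands, occurred in 27.5% of member promoters and in 8.3% of all. By group, an ISRE core was present in 54.5% of the type I genes with a promoter and in 76.9% of the gamma genes. A GAS core was present in 18.2% and 53.8% of them. Members were chosen as interferon genes, so these shares describe the choice. Among tested members with a promoter, 15 of 20 with an ISRE core were higher and 1 was lower on the deposited scale. Of 10 without one, 7 were higher and 1 was lower, with medians of 0.54 and 0.45. Of all tested genes, 54.4% were higher and 19.5% lower. The 15 include Tgtp1, whose direction was fixed by the filter. After median-ratio scaling, calls were lost both with an ISRE core (Isg15 and Oas3 among them) and without one (Irf7 and Xaf1). Matches may overlap one another, and a match is not a bound site.

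Both elements stand side by side in the promoters of 4 immunity-related GTPase genes that were higher, and these are shown because of that shared arrangement, which was noticed after the values had been seen. The core matches are in capitals, GAS first and ISRE second.
Igtp: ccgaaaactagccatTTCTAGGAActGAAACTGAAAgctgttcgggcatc
Irgm2: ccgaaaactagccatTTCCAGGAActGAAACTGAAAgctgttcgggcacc
Tgtp1: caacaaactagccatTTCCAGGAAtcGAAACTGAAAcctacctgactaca
Tgtp2: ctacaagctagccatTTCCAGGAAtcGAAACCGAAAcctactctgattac
These stretches lie at chr11:58199496-58199545 (plus strand, Igtp), chr11:58214887-58214936 (plus, Irgm2), chr11:48992300-48992349 (minus, Tgtp1) and chr11:49064259-49064308 (minus, Tgtp2). In all 4 the cores are separated by 2 bases. The combined motif, a GAS core, any 2 bases and an ISRE core, on either strand, was defined from the spacing in these 4 promoters. It was found in 5 of all 32851 promoters, and 4 of the 5 genes are these members. These 4 had to match, so the count does not measure how specific the motif is to them. Over the 50 bases shown, Tgtp1 and Tgtp2 are identical at 39, and the substitution within the ISRE core is T32C from Tgtp1 to Tgtp2, counted from 1 at the first base printed.

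Other members differ in their elements. The following are examples of genes that were higher and genes that were lower on the deposited scale, with ISRE and GAS cores in capitals.
Isg15: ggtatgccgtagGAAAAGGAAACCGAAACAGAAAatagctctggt
Rsad2: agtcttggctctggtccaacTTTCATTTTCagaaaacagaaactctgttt
Gbp7: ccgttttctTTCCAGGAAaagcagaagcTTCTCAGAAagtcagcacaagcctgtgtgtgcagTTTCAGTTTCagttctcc
Oas1a: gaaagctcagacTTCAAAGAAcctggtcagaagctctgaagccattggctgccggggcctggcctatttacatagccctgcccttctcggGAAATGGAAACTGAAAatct
Ifi47: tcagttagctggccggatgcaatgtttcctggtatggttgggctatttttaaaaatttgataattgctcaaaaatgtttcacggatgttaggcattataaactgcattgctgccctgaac
Isg15 (chr4:156200864-156200908, minus) holds 3 overlapping ISRE cores, Rsad2 (chr12:26456543-26456592, minus) 1 on the opposite strand, and Gbp7 (chr3:142530221-142530300, plus) a pair of GAS cores before 1 ISRE core. Oas1a (chr5:120907526-120907635, minus), which was lower, holds a GAS core and an overlapping pair of ISRE cores next to its start. Ifi47 (chr11:49076467-49076586, plus), which was also lower, has neither core in its 300-base window, which says only that these letters are absent there. Elements of this kind occurred both in members that were higher and in Oas1a, whose lower call was lost under some alternatives. The higher call of Isg15 was lost after median-ratio scaling. Irf7, Irf9, Oasl2, Xaf1 and Cmpk2, which are not shown, also have neither core and were higher on the deposited scale.

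**Figure D4:**
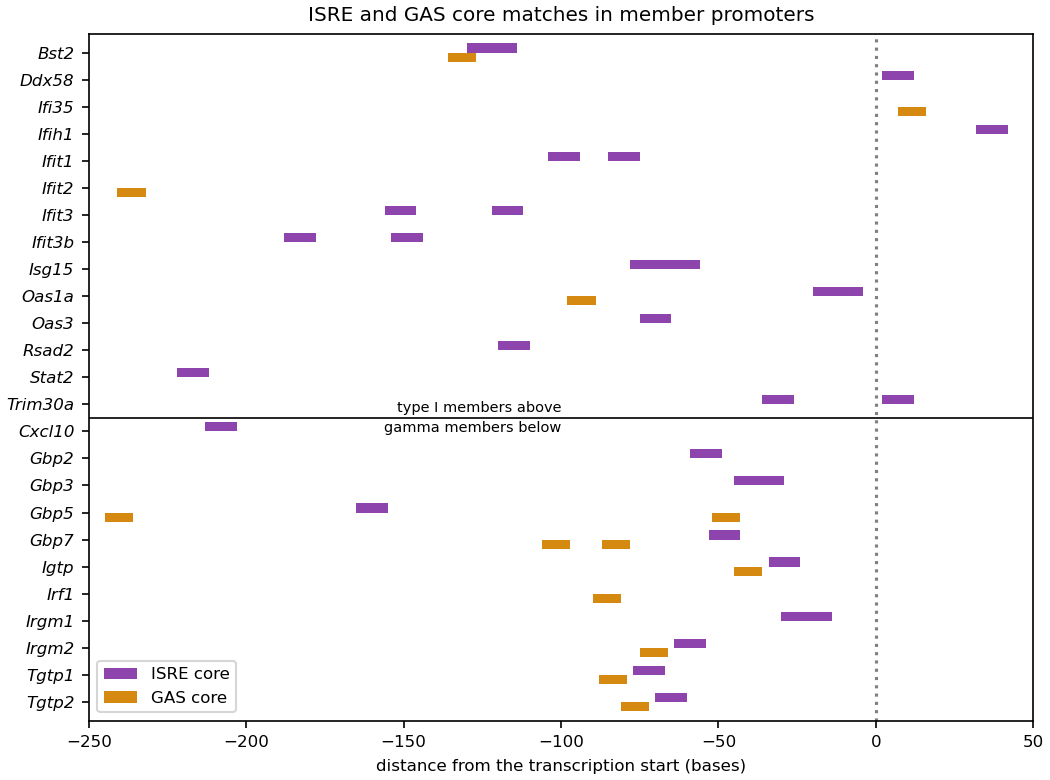
Position of ISRE core matches (purple, upper) and GAS core matches (orange, lower) in bases from the transcription start of each member promoter that holds at least 1, with type I members above the line and gamma members below it. In Igtp, Irgm2, Tgtp1 and Tgtp2 a GAS core stands 2 bases before an ISRE core, within 100 bases of the start.

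The gamma-induced chemokines, which draw cells bearing Cxcr3, did not change in a way that passed the test. Cxcl10 was at 8.58 and 8.97 TPM in Tet2 KO and at 8.56 and 7.78 TPM in WT (log2 fold change 0.09, SE 0.0876, limma adjusted p = 0.346). Cxcl9 was listed at 0.06 and 0.02 TPM in Tet2 KO and at 0 in both WT libraries.

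Genes of the pathway outside the set were read from lists of known pathway genes, chosen with earlier results known. Of 40 tested further type I response genes, 25 were higher (62.5%) and 6 lower (15%), near the 54.4% and 19.5% of all tested genes. Of the 25, 1 passed the filter only through the Tet2 KO libraries. After median-ratio scaling, 18 were higher (45%) and 11 lower (27.5%), against 33.3% and 34.4% of all tested genes. On the log2(TPM + 1) scale the largest differences were in Slfn5 (log2 fold change 1.23), the nuclease gene Isg20 (1.17), Slfn8 (1.17) and the DNA sensor family gene Ifi207, which stood at 5.36 and 5.94 TPM in Tet2 KO cells, compared with 13.55 and 14.30 TPM in WT cells. Of 7 tested further gamma response genes, 5 were higher and 2 lower on both scales, Gbp2b among the 5. Of the others, Serpina3g, a serine protease inhibitor gene, stood at 305.14 and 322.69 TPM in Tet2 KO cells, compared with 125.61 and 123.86 TPM in WT cells. Wars, the tryptophanyl-tRNA synthetase gene, was 2.16-fold higher.

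Genes that act upstream were mixed in direction. For the counts that follow, 54.4% of all tested genes were higher and 19.5% lower, or 33.3% and 34.4% after median-ratio scaling. Of 10 tested sensing and adaptor genes, 3 were higher and 3 lower, or 1 and 6 after median-ratio scaling. Tlr9, a DNA receptor, stood at 2.08 and 2.31 TPM in Tet2 KO cells, compared with 1.06 and 1.07 TPM in WT cells, and Tlr7, an RNA receptor, stood at 22.10 and 19.80 TPM in Tet2 KO libraries, against 29.80 and 33.32 TPM in WT. Tmem173, which encodes STING, was 1.24-fold higher on the deposited scale (limma adjusted p = 1.22e-04) and was not called after median-ratio scaling. Of 8 genes that keep self nucleic acid in check, 5 were higher and 1 lower, or 2 and 1 after median-ratio scaling. The one that was lower was Rnaseh2c, a subunit of ribonuclease H2, at 55.36 and 60.30 TPM in Tet2 KO cells, compared with 89.68 and 85.95 TPM in WT cells. Of 6 feedback inhibitors, 3 were higher and 2 lower. After median-ratio scaling limma called 3 lower and 0 higher, and at an unadjusted p under 0.05 it also put 0 higher. Socs1, a JAK inhibitor, stood at 21.13 and 25.55 TPM in Tet2 KO cells, compared with 18.38 and 17.28 TPM in WT cells (log2 fold change 0.36, limma adjusted p = 0.0016), which no longer held after median-ratio scaling. The phosphatase gene Ptpn1 was lower, at 54.76 and 57.55 TPM in Tet2 KO cells, compared with 85.50 and 85.99 TPM in WT cells. Of the 6 other interferon regulatory factors, 3 were higher and 2 lower, or 1 and 2 after median-ratio scaling. Irf8, a factor of monocytes and dendritic cells, stood at 12.98 and 13.69 TPM in Tet2 KO cells, compared with 31.14 and 31.03 TPM in WT cells (log2 fold change -1.16, limma adjusted p = 1.57e-10).

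**Figure D5:**
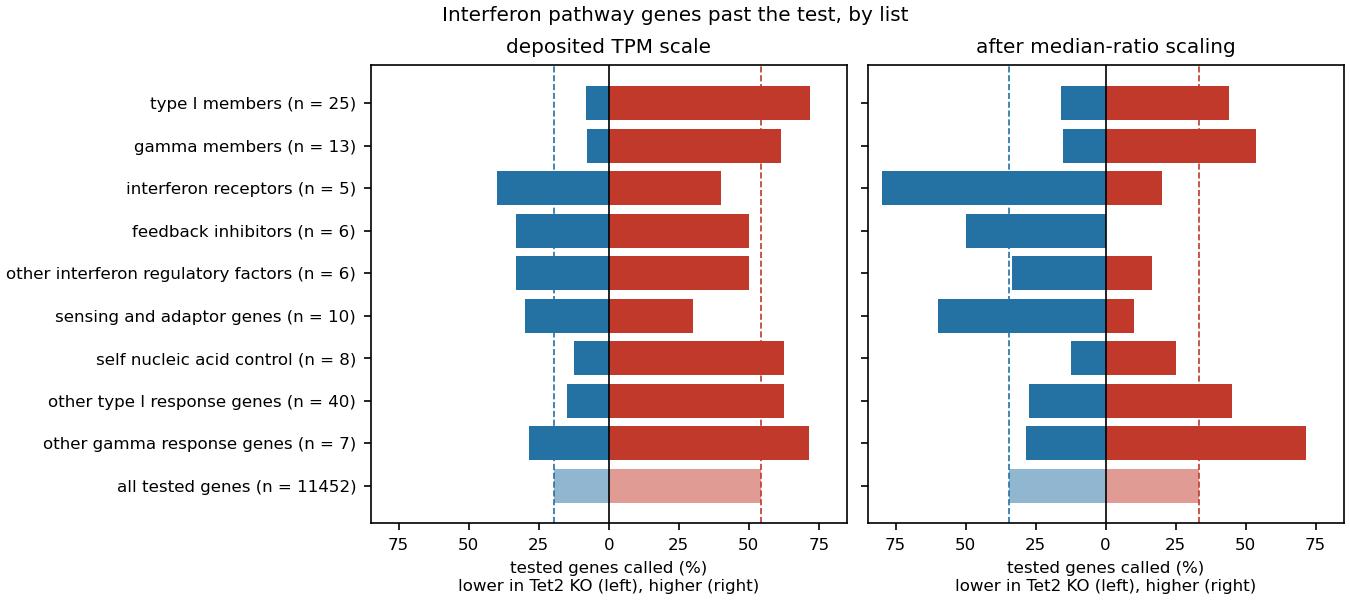
Percent of tested genes in each list that were higher (red, to the right) or lower (blue, to the left) in Tet2 KO than in WT at a limma adjusted p under 0.05, on the deposited TPM scale and after median-ratio scaling, with n the number tested and dashed lines at the shares of all tested genes. In both panels the higher share of the members and of the further response genes lies above that of all genes. That of the receptors and sensing genes does not. On the deposited scale the gamma members (61.5%) and further type I genes (62.5%) lie near the 54.4% of all tested genes. The self nucleic acid genes (62.5%) do so too. No list was tested against all genes. The higher gamma members include 2, Tgtp1 and Gbp8, and each further response list 1, that passed the filter only through the Tet2 KO libraries.

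Markers of the labelled myeloid cells were present, and most markers of lymphoid, plasmacytoid dendritic and stromal cells were at or near 0. All 8 myeloid leukaemia markers were tested, among them Ptprc at 229.57 and 208.87 TPM in Tet2 KO and at 176.45 and 192.40 TPM in WT, and Mpo at 152.59 and 160.65 TPM in Tet2 KO and at 92.06 and 91.51 TPM in WT. Of the 8, 4 were higher and 4 lower, or 3 and 4 after median-ratio scaling. Over all tested genes the shares were 54.4% higher and 19.5% lower, or 33.3% and 34.4% after that scaling. Among the lower markers was Csf1r, a macrophage growth factor receptor gene. It was at 39.39 and 43.41 TPM in Tet2 KO and at 99.48 and 100.70 TPM in WT. The list summed to 8760.3 and 8865.6 TPM in Tet2 KO and to 20518.2 and 20542.0 TPM in WT, of which the lysozyme gene Lyz2 alone held 7574.7 and 7652.3 TPM in Tet2 KO and 19230.8 and 19238.9 TPM in WT. Of 8 T and NK cell markers, Nkg7 was at 127.93 and 128.23 TPM in Tet2 KO and at 50.16 and 51.62 TPM in WT, while Cd3e, Cd3g and Ncr1 were at 0 in all libraries and the list summed to 128.1 and 128.6 TPM in Tet2 KO and 50.5 and 51.9 TPM in WT. Of 7 plasmacytoid dendritic cell markers, Cox6a2 was at 10.90 and 8.93 TPM in Tet2 KO and at 0.24 and 1.05 TPM in WT, while Klk1 and Ly6d were at 0 throughout. The list summed to 11.4 and 10.03 TPM in Tet2 KO and 0.86 and 1.35 TPM in WT. The 4 B cell markers summed to at most 0.82 TPM and the 4 stromal and endothelial markers to at most 0.31 TPM. The part of these differences in the interferon gene values was not tested.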

How the data were processed

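RNA was extracted with QIAzol and made into libraries with a stranded mRNA kit, per the labels' protocols. STAR and RSEM on mm10 are named in the submitters' processing notes. For versions, annotation and strand setting, nothing is given in the sources used here. Values were taken as TPM from the table that the authors deposited. Its 92 ERCC rows were left out of the tests.

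Genes with 1 TPM or more in any 2 libraries were compared, Tet2 KO against WT, with limma 3.58.1 (R 4.3.3, statmod 1.5.0) on log2(TPM + 1), with intensity trend and robust estimation, two-sided, adjusted by Benjamini-Hochberg over 11452 genes. The steps were tested on simulated data. Members and lists were chosen with earlier results of these data known. Every member is named, and of each other list up to 4 called genes with the largest change, with others where a result turns on them. Shared 50-base stretches were counted in the longest GENCODE M21 transcripts, where all 49 members matched. Alternatives were pseudocounts of 0.1 and 5, other filters and scalings, a replicate block, other limma settings, summed copies and leaving out each library. A length and GC correction with median-ratio scaling and sums with Oas1 copies were added after the data were seen. Some genes of the pathway lists are not reported here. Figures used matplotlib 3.10.9.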

Additional observations from a re-analysis of the deposited data

How the results depend on the processing

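Of the called members, 9 type I genes (Ifit1, Ifit2, Irf9, Oasl2, Rsad2, Ifih1, Ddx58, Rtp4 and Trim30a) and 5 gamma genes (Gbp7, Irf1, Irgm2, Igtp and Tgtp2) were higher, and Ifi47 lower, under each of the 16 alternatives in which they were tested. Gbp8 and Tgtp1 were too, but their direction was fixed by the filter. In the alternative with a filter of 5 TPM, the direction of Rtp4, Rsad2, Oasl2 and Ifih1 was fixed as well. No paired analysis is implied by the labels. With a replicate block 18 and 8 members were higher and 2 and 1 lower, as without it, and the deviations of same-numbered libraries correlated at -0.056. Type I members higher and lower numbered 11 and 4 after median-ratio scaling, 11 and 3 with ERCC scaling, and 10 and 5 after quantile normalization. Median-ratio scaling together with a length and GC correction gave 17 and 3. Gamma members higher and lower numbered 7 and 2 under each of the 3 scalings and 8 and 2 with scaling and correction together. All genes higher and lower numbered 3815 and 3936 (median ratio), 3491 and 3776 (ERCC), 3915 and 3741 (quantile), and 4051 and 3687 (median ratio with length and GC correction). With a filter of 5 TPM, 12 of 16 type I and 6 of 9 gamma members were higher and 1 of each lower. Among 9610 genes tested there, 5440 were higher and 1962 lower. The 12 include Rtp4, Rsad2, Oasl2 and Ifih1, which passed that filter only through the Tet2 KO libraries. With no filter, 19 of 30 type I and 11 of 19 gamma members were higher and 2 and 1 lower. Among the 16421 genes then tested, 6444 were higher and 2348 lower. Leaving out 1 library gave 16 to 18 type I members higher and 0 to 2 lower, 8 gamma members higher and 1 to 2 lower, and 5442 to 6145 genes higher and 1875 to 2237 lower. The values of 0 came without Tet2 KO replicate 2 and without WT replicate 1, where limma still put 2 and 1 at an unadjusted p under 0.05.

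Log2 fold changes that changed sign, none of them called on the deposited scale, were as follows. After median-ratio scaling they were -0.19 for Stat2, -0.18 for Ifi35, -0.17 for Dhx58, -0.080 for Gbp2, -0.080 for Gbp9 and -0.13 for Cxcl10. With ERCC scaling they were -0.20, -0.18, -0.18, -0.085, -0.082 and -0.13 for the same genes. After quantile normalization they were -0.21, -0.18, -0.21, -0.15, -0.20 and -0.18, and -0.075 for Oasl1. With median-ratio scaling and the length and GC correction together they were -0.24 for Stat2, -0.030 for Dhx58 and -0.19 for Gbp9. Leaving out 1 library gave -0.26 to 0.0081 for Mx1, -0.062 to 0.17 for Dhx58 and -0.015 to 0.14 for Ifi35. The cause of these changes was not tested. With 2 libraries a group and no depth, differences in members under about 1 TPM could not be judged.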
